A study of Homo sapiens with 2 samples.

Results

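The short arm of human chromosome 9, at band 9p21, carries MTAP, CDKN2A, CDKN2B and DMRTA1 next to one another, and this account follows the accessible chromatin called around these 4 genes in RPMI-8402 and Jurkat cells. Both are established T-ALL lines (T-ALL is the acute lymphoblastic leukaemia of developing T cells) and were grown without treatment as far as the labels say. Each line gave 1 library of ATAC-seq, which marks open DNA by the insertion of sequencing adapters with the Tn5 transposase. Without replicates, values have no spread between samples and differences between the lines were not tested. The regions were chosen by position, as all peaks with the summit between 20900000 and 23700000 on chromosome 9 (hg19). The position itself was selected on these measurements, because earlier results had shown a long run of RPMI-8402 peaks here with no Jurkat partner, so the counts describe that choice. The interval held 16 of 24603 RPMI-8402 peaks and 5 of 25189 Jurkat peaks. Summit pileup is the number of fragments that the caller counted over the highest base of a peak. Its median over each whole list was 38 in RPMI-8402 and 37 in Jurkat. At the 16494 pairs in which 1 peak overlaps 1 peak, the median log2 pileup ratio, RPMI-8402 over Jurkat, was −0.17. Whether the T-cell marker genes have peaks was not analysed here.

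CDKN2A encodes a pair of unrelated proteins from separate first exons. One is p16INK4a, which blocks the cyclin-dependent kinases CDK4 and CDK6 and so keeps the RB protein active, and the other is p14ARF, which restrains MDM2 and so stabilises p53. CDKN2B encodes p15INK4b, a close relative of p16INK4a that blocks the same kinases. MTAP encodes the enzyme that recycles methylthioadenosine, a by-product of polyamine synthesis, into the methionine and adenine salvage pathways. DMRTA1 encodes a protein with the DM domain, a DNA-binding domain first known from sex determination factors. Loss of CDKN2A, often together with its neighbours, is among the most frequent lesions of T-ALL.

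The gene starts of the interval are shown as DNA because the comparison turns on which of them carried a peak. Each sequence runs 5′ to 3′ on the strand of its gene, from 250 bases before to 50 after a RefSeq start (GRCh38.p14, a later build than that of the peaks, so no position was carried between them). Windows were found for all 4 genes. CDKN2A has an outer start, used for p14ARF, and an inner one, used for p16INK4a. The outer RefSeq start and the outer 5′ end given with the interval (position 21994490 on hg19) are separate annotations and may not be the same base. Capitals mark matches on either strand to the GC box GGGCGG, the CCAAT box CCAAT and the TATA box TATAAA.
MTAP, chr9:21802386-21802685, plus strand: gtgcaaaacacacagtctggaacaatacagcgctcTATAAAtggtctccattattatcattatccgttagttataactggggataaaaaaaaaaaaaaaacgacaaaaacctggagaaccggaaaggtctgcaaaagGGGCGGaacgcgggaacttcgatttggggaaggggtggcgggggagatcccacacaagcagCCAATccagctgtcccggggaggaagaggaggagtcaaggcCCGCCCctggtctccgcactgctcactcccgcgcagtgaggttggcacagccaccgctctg
CDKN2A outer start, chr9:21995275-21995574, minus strand: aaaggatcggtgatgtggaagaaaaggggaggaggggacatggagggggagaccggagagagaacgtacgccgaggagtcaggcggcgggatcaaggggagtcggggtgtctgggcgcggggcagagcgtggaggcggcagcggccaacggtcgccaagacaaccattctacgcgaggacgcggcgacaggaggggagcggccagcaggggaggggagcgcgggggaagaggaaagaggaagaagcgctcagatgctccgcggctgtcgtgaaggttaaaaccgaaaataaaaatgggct
CDKN2A inner start, chr9:21974808-21975107, minus strand: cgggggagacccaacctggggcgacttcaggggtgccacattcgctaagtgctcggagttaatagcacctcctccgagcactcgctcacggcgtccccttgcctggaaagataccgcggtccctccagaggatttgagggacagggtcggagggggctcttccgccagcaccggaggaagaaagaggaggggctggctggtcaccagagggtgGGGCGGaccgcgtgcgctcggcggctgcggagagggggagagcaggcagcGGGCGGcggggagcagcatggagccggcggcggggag
CDKN2B, chr9:22009256-22009555, minus strand: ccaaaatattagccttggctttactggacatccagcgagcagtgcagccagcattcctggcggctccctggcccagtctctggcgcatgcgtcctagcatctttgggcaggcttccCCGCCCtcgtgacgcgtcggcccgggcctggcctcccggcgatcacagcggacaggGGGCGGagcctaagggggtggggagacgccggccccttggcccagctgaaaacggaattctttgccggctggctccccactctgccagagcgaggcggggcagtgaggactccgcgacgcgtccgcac
DMRTA1, chr9:22446574-22446873, plus strand: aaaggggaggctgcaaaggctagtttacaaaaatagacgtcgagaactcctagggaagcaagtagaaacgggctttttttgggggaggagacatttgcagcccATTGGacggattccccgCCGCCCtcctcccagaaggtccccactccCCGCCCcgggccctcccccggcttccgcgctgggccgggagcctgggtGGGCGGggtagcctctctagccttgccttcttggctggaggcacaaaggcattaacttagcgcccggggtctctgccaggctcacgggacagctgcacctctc

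All 5 windows had more CG dinucleotides than the median of 14 over 35116 RefSeq windows of the same length. The counts were 28 at the outer and 26 at the inner CDKN2A start, 25 at CDKN2B, 16 at DMRTA1 and 15 at MTAP. The starts of CDKN2A and CDKN2B, which had no peak in either line, were thus the richest of the 5 in CG. The share of G and C was 63.3% and 69.0% at the outer and inner CDKN2A starts, 67.3% at CDKN2B, 62.3% at DMRTA1 and 53.0% at MTAP, against a median of 58.7% over all windows. The GC box, which occurs in 44.95% of all windows, was found 3 times at DMRTA1, 2 times each at MTAP, CDKN2B and the inner CDKN2A start, and 0 times at the outer CDKN2A start. The CCAAT box, found in 34.6% of all windows, occurred once each at MTAP and DMRTA1, and the TATA box, found in 11.5%, once at MTAP. Neither the ETS core CCGGAAG nor the E-box CACGTG, found in 10.3% and 7.26% of all windows, was in any of the 5. A match is a string of letters and not a bound site.

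At the gene starts, RPMI-8402 had a peak at 2 of the 4 genes and Jurkat at 0 of 4, where a peak counts if its summit lies within 1 kb of the 5′ end of the gene on hg19. The RPMI-8402 peak at MTAP (gene on the plus strand, positions 21802635 to 21931646) covered positions 21802492 to 21803517, with its summit 193 bp inside the gene. Its pileup reached 120 fragments (95% Poisson interval 99.5 to 143, for counting error only) and its enrichment 11.1-fold. With a width of 1026 bp it was the widest peak of the interval. The RPMI-8402 peak at DMRTA1 (plus strand, positions 22446840 to 22452472) covered positions 22446674 to 22447644, with its summit 261 bp inside the gene. Its pileup was 126 fragments (105 to 150.0) and its enrichment 12.7-fold, and its width was 971 bp. These were the highest peaks of the interval in either line, and stood at the 90.4th and 91.5th percentile of all RPMI-8402 pileups. In Jurkat the nearest peak to the MTAP start was 705809 bp away and the nearest to the DMRTA1 start 1143778 bp away.

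At the tumour suppressor genes themselves, no peak was called in either line. CDKN2A (minus strand, positions 21967751 to 21994490) and CDKN2B (minus strand, positions 22002902 to 22009312) had 0 peaks over the gene or at the outer 5′ end in RPMI-8402 and 0 in Jurkat. Both CDKN2A starts are covered by this statement, since the inner one lies within the gene. The nearest RPMI-8402 peaks to the CDKN2A start were the one at MTAP, 190973 bp below, and a weak one 214539 bp above. The nearest Jurkat peaks were 897664 bp below and 1596128 bp above it. For the CDKN2B start, the nearest peak was 199717 bp away in RPMI-8402 and 912486 bp away in Jurkat. The lines thus shared the absence of a call at CDKN2A and CDKN2B and differed at the genes on either side. The peak lists hold no read depth outside peaks, so closed chromatin and missing DNA cannot be told apart at a site with no call.

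**Figure D1:**
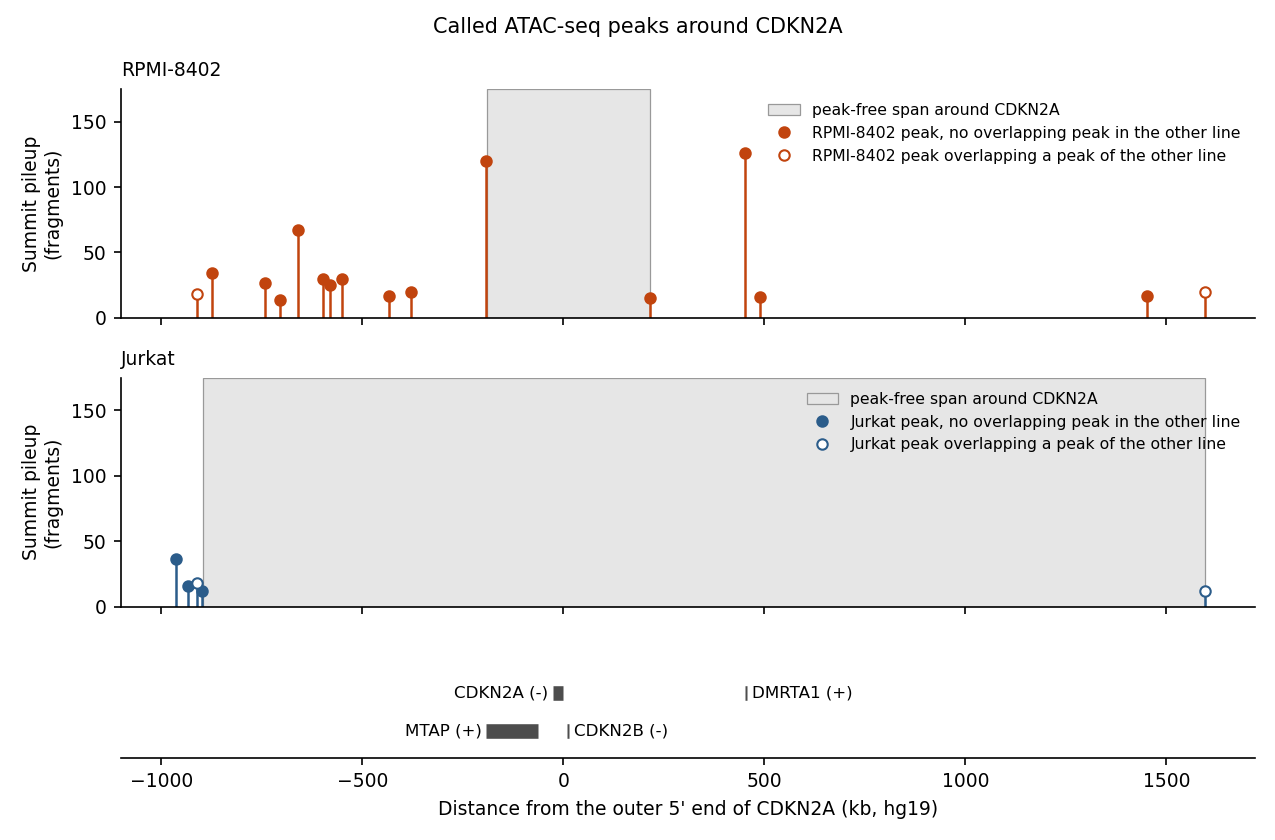
Summit pileup (fragments, vertical axis) of each called peak in the interval against its distance from the outer 5′ end of CDKN2A (kb, hg19), with RPMI-8402 above Jurkat and the 4 genes with their strands below. Open circles overlap a peak of the other line, and grey marks the stretch around CDKN2A without a call, which is 405.5 kb long in RPMI-8402 and 2494 kb in Jurkat.

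The stretches without a call were nested. In RPMI-8402 the stretch ran from position 21803518 to position 22209028, a length of 405.5 kb that begins just inside MTAP and takes in most of that gene, all of CDKN2A and all of CDKN2B. In Jurkat it ran from position 21096827 to position 23590617, a length of 2.49 Mb that takes in all 4 genes and the whole RPMI-8402 stretch. The Jurkat stretch held 14 RPMI-8402 peaks, and the RPMI-8402 stretch held 0 Jurkat peaks. The upper end of the RPMI-8402 stretch rests on a single weak peak with a pileup of 15. Among peaks with a −log10 q of at least 10, the RPMI-8402 stretch reached from the MTAP peak to the DMRTA1 peak, 643 kb, and the Jurkat stretch was 5.58 Mb long.

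Set beside all other gaps between neighbouring peaks, without chromosome Y, the RPMI-8402 stretch was not rare in length. Of 24555 such gaps in RPMI-8402, 1355 (5.52%) were at least as long, and 554 of these also held 0 Jurkat peaks. The Jurkat stretch was among the longest, with 37 of 25107 gaps (0.147%) at least as long, itself included. Most of those 37 gaps held few RPMI-8402 peaks, as 11 held 0 and the median was 2. The longest, of 21.1 Mb on chromosome 1, 19.3 Mb on chromosome 9 and 11.3 Mb on chromosome 16, each held 0. Whether such gaps lie over centromeres or gaps in the assembly was not analysed here. Among the 30 Jurkat gaps closest in length to that around CDKN2A, itself included, the median was 5 RPMI-8402 peaks, with a range from 0 to 14. The gap around CDKN2A was the 1 Jurkat gap of any length with 14 or more RPMI-8402 peaks. That cut-off is its own count. Jurkat gaps of 1.92 Mb on chromosome 2, 3.17 Mb on chromosome 10 and 4.37 Mb on chromosome 14 each held 12. Gaps of 2.65 Mb on chromosome 2 and 1.34 Mb on chromosome 3 each held 11. Of the 53 Jurkat gaps of at least 2 Mb, 5 held 10 or more RPMI-8402 peaks, that around CDKN2A included. Among RPMI-8402 gaps that long, 3 held 10 or more Jurkat peaks. Of the 36 RPMI-8402 gaps of at least 2 Mb, the one with the most Jurkat peaks held 11, against 14 RPMI-8402 peaks as the most in 53 such Jurkat gaps. No test goes with this ranking, since the interval was selected for the run it contains.

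**Figure D2:**
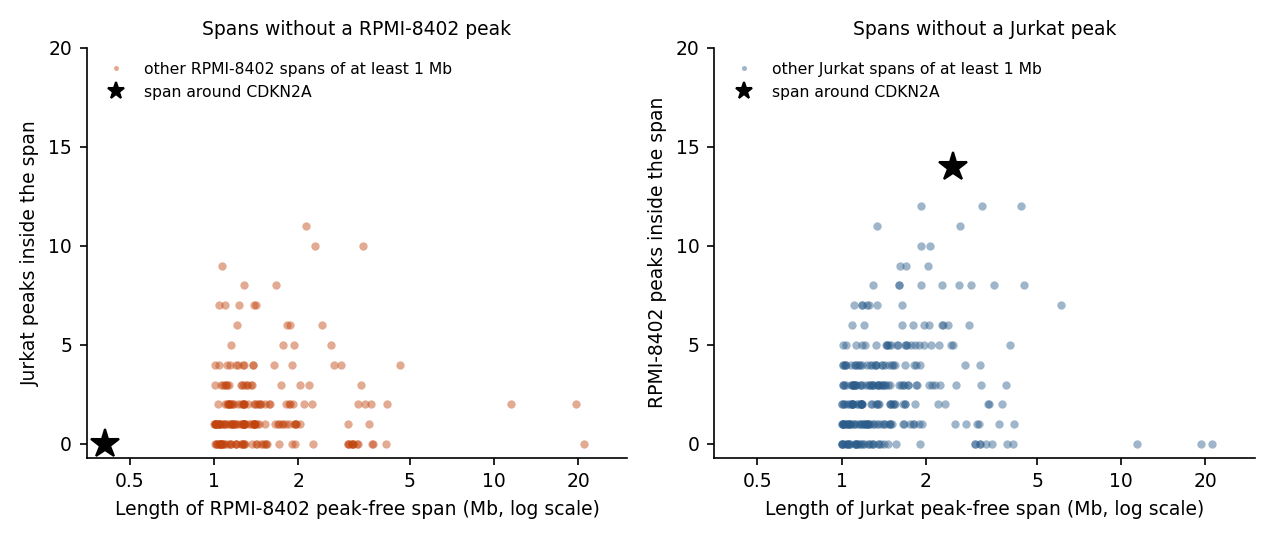
Number of peaks of the other line (vertical axis) inside each stretch of at least 1 Mb without a peak of the named line, against its length (Mb, log scale), with chromosome Y left out. The star marks the stretch around CDKN2A, which in RPMI-8402 is shorter than 1 Mb and holds 0 Jurkat peaks, and in Jurkat is 2.49 Mb long and holds 14 RPMI-8402 peaks.

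Of the 16 RPMI-8402 peaks in the interval, 14 had no overlapping Jurkat peak, against 31.9% of all RPMI-8402 peaks. Of the 5 Jurkat peaks, 3 had no overlapping RPMI-8402 peak, against 32.6% of all Jurkat peaks. Over the whole genome, weak RPMI-8402 peaks lacked a partner more often than strong ones, so the members were read by pileup. In the weakest class, from 10 to 15 fragments, 2 of 2 RPMI-8402 peaks of the interval lacked a partner, against 75.3% over the genome. The class from 16 to 20 fragments held the most members, and 4 of 6 lacked a partner, close to the 63.7% over the genome. Both members with a partner, of 18 and 20 fragments, belonged to this class. In the class from 21 to 30 fragments, 4 of 4 members lacked a partner, against 49.0% (95% exact binomial interval 47.6 to 50.4%). In the class from 31 to 45 fragments it was 1 of 1, against 27.5%, and in the class from 66 to 100 fragments 1 of 1, against 5.29% (4.57 to 6.09%). The peaks at MTAP and DMRTA1 belonged to the class from 101 to 150, of which 2.10% (1.56 to 2.76%) lacked a partner. Over the genome, 2380 RPMI-8402 peaks had a pileup at least as high as the one at MTAP, and 44 of them, 1.85%, had no Jurkat peak. At a −log10 q of at least 10, 9 of the 10 members lacked a partner, against 20.4% of such peaks over the genome. The interval was chosen for this lack of partners, so the contrasts with the genome describe that choice and test nothing. A Jurkat summit over the lowest background of that library needed 9 fragments to reach the caller's threshold, and Jurkat counts below that leave no record.

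**Figure D3:**
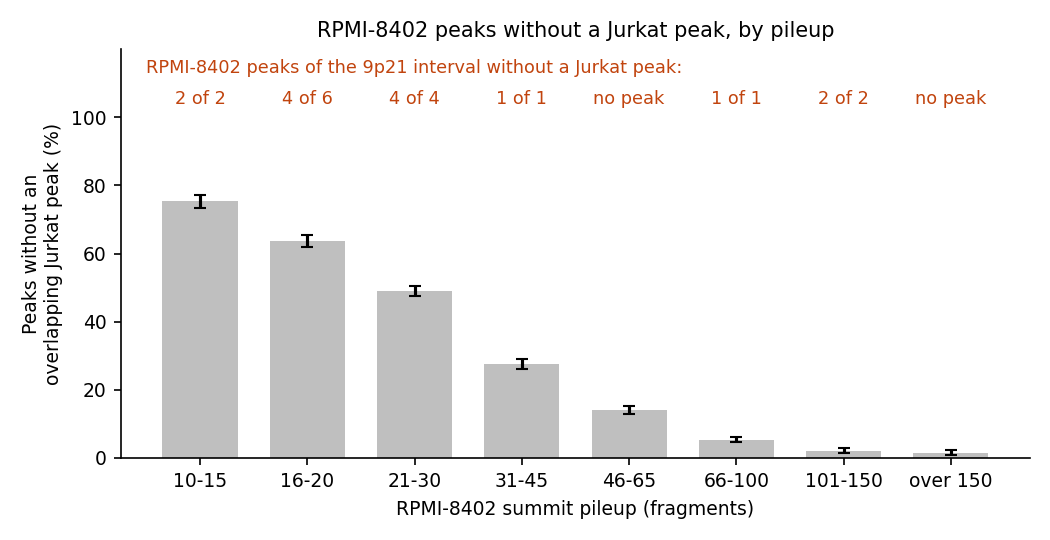
Share of all RPMI-8402 peaks without an overlapping Jurkat peak (%, vertical axis, bars with 95% exact binomial intervals) by class of summit pileup (fragments), with the number of RPMI-8402 peaks of the 9p21 interval without a Jurkat peak above each bar. Over the genome the share falls from 75.3% in the weakest class to 1.56% in the strongest, and the 2 members in the class from 101 to 150 fragments, at MTAP and DMRTA1, both lack a partner.

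Below MTAP, RPMI-8402 had a run of 9 peaks between positions 21119028 and 21615766, where Jurkat had 0. Over the interval as a whole RPMI-8402 had 5.71 peaks per Mb, and over the Jurkat stretch without calls 5.61. Both were below the 7.46 per Mb between its first and last peak on chromosome 9, a length that includes an RPMI-8402 gap of 19.6 Mb. The run, measured from its own first to its own last peak and so at its densest, had 18.1 per Mb over 496.7 kb. In the RefSeq gene order, 16 of the 18 protein-coding genes between FOCAD and MTAP are type I interferon genes, which encode the secreted antiviral interferons of the alpha, beta, omega and epsilon classes. The others among the 18 are HACD4 and KLHL9. Which peaks of the run lie at which of the 18 genes was not analysed here, so the run is not assigned to the interferon genes. The strongest peak of the run (positions 21334798 to 21335610) reached 67 fragments (51.9 to 85.1) and a 10.6-fold enrichment. The first peak (positions 21119028 to 21119695) reached 34 (23.6 to 47.5). A group of 3 neighbouring peaks, at positions 21396055 to 21396451, 21413361 to 21413992 and 21444070 to 21444695, had pileups of 30, 25 and 30. The peak at positions 21253139 to 21253492 had a pileup of 27, and the remaining 3, starting at positions 21289905, 21559562 and 21615395, had pileups of 14, 17 and 20. Their counting intervals overlap, so no order among the 3 weakest can be read from them. No peak of this run was as high as those at MTAP and DMRTA1, whose intervals lie above that of the strongest.

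From MTAP upwards, RPMI-8402 had few calls apart from the DMRTA1 start. Between MTAP and DMRTA1 the one peak was that at positions 22209029 to 22209341, 313 bp wide, the narrowest RPMI-8402 peak of the interval, with a pileup of 15 (8.40 to 24.7). Above DMRTA1 lay peaks at positions 22483492 to 22483877 and 23447129 to 23447547, with pileups of 16 and 17. The 963 kb between them was the longest RPMI-8402 gap within the Jurkat stretch, and 0.933% of all RPMI-8402 gaps were at least as long. DMRTA1 and ELAVL2, which encodes a neuronal RNA-binding protein, have 0 protein-coding genes between them in the RefSeq order. Over the whole interval the RPMI-8402 pileups had a median of 22.5, a median percentile of 26.3 among all RPMI-8402 peaks, with widths from 313 to 1026 bp. By the deposited fold enrichment the median percentile was 54.8. Of the 16 peaks, 6 lay over the lowest background of the library, against 2395 of all 24603 RPMI-8402 peaks.

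The Jurkat calls of the interval lay at its 2 ends. Below the stretch without calls came 4 peaks, with pileups of 36 at positions 21031130 to 21031846, 16 at positions 21061048 to 21061354, 18 at positions 21081585 to 21082308 and 12 at positions 21096421 to 21096826. Above it came 1 peak, with a pileup of 12, at positions 23590618 to 23590904. The third of the lower peaks and the upper one overlapped RPMI-8402 peaks, which were the 2 members with a Jurkat partner. At the lower shared site the pileup was 18 in RPMI-8402 and 18 in Jurkat, and at the upper one 20 in RPMI-8402 and 12 in Jurkat. Both shared sites were weak, and the Poisson intervals of the upper one overlap, at 12.2 to 30.9 fragments in RPMI-8402 and 6.20 to 20.96 in Jurkat. Outside the lower limit of the interval, the next peaks had pileups of 50 in RPMI-8402, 139312 bp away, and 14 in Jurkat, 139522 bp away. Above the upper limit, the next RPMI-8402 peak, with a pileup of 53, lay 998777 bp away, and Jurkat had 0 peaks in the first 1 Mb.

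Beside the interval, the share of RPMI-8402 peaks without a partner depended on the distance taken. Over the 5 Mb on either side together, 35 of 63 RPMI-8402 peaks (55.6%) had no Jurkat partner, against 31.9% of all RPMI-8402 peaks. Of the Jurkat peaks there, 11 of 39 (28.2%) had no RPMI-8402 partner, against 32.6% of all Jurkat peaks. The flanking shares were not matched for pileup, and weak RPMI-8402 peaks lack a partner more often. Within 2 Mb on either side, 10 of 30 RPMI-8402 peaks (33.3%) and 2 of 22 Jurkat peaks (9.09%) lacked a partner. The former share was near that over all RPMI-8402 peaks and the latter below that over all Jurkat peaks. Most of these RPMI-8402 peaks lay below the interval, where 8 of 27 (29.6%) lacked a partner, near the share of all RPMI-8402 peaks. In the 2 Mb above it, 2 of 3 lacked one, too few peaks to give a share. In the 5 Mb below it, 21 of 43 RPMI-8402 peaks and 21 of 28 Jurkat peaks were shared, and in the 5 Mb above it 7 of 20 RPMI-8402 peaks and 7 of 11 Jurkat peaks. The log2 pileup ratio, RPMI-8402 over Jurkat and centred on the median of all 16494 pairs in which 1 peak overlaps 1 peak, had a median of 0.41 over the 28 flanking pairs (25th to 75th percentile −0.14 to 0.85). Over all pairs these percentiles were −0.40 and 0.46, and the median of chromosome 9 was 0.05. The flanking ratios ran from −0.73 to 2.01 and lay to the RPMI-8402 side, with 25th to 75th percentiles that overlap that of all pairs. Scaling pileups by the lowest background of each library put the median of all pairs at −0.47 and the flanking median at −0.063. This scaling moves every pair by the same amount, so the distance between these medians stays the same by construction. It is therefore no second reading of the flanking ratios. On the deposited fold enrichment the flanking median was lower, at 0.13, and the cause was not tested. The highest centred pileup ratio of the flanking pairs, 2.01, belonged to the pair nearest to the interval on the lower side. That pair had 50 fragments in RPMI-8402 and 14 in Jurkat.

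**Figure D4:**
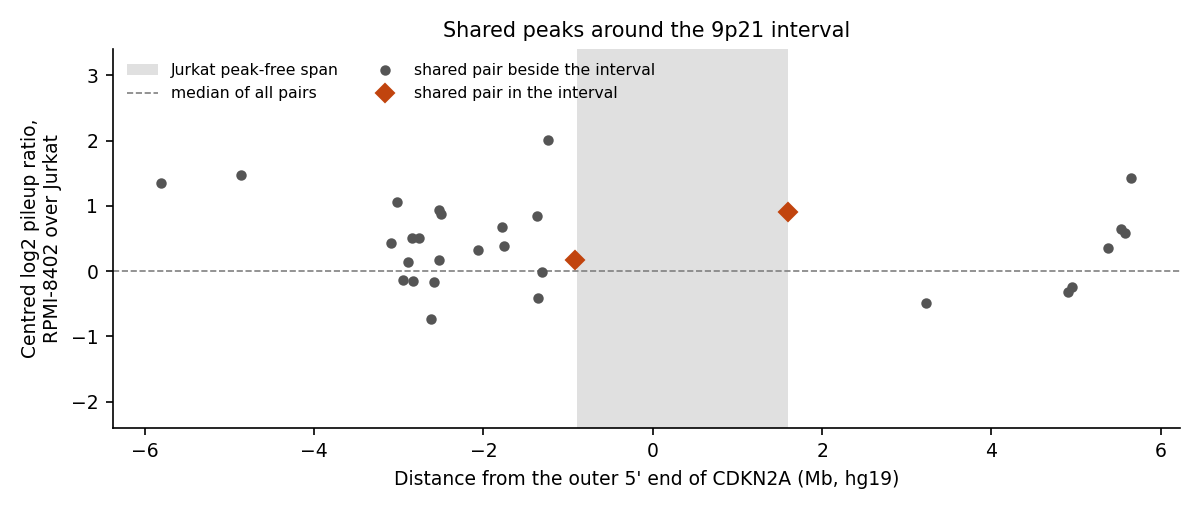
Centred log2 ratio of summit pileups, RPMI-8402 over Jurkat (vertical axis), of each shared pair within 5 Mb of the interval, against distance from the outer 5′ end of CDKN2A (Mb, hg19). Grey marks the Jurkat stretch without calls, which holds no pair, the diamonds are the 2 shared pairs inside the interval, and the flanking pairs run from −0.73 to 2.01 around the dashed median of all pairs.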

How the data were processed

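Each line's deposited file is a peak list in the 10-column narrowPeak layout, from 1 library. Paired-end reads of 150 bp were sequenced, per the labels' protocols. The submitters' processing notes name the tools Bowtie2, Picard, SAMtools and MACS2 2.1.1.2016030 and the build hg19, with neither order nor parameters. How reads were filtered, deduplicated or offset for Tn5 is not given in the sources used here. Nor is it given whether the caller counted read pairs or single reads, so a fragment here means 1 unit of its pileup. The deposited values are, for each peak, a score, a fold enrichment, and −log10 of a p-value and a q-value, all made by the authors, and they were used as deposited. The score is 10 times the −log10 p, cut to a whole number, and was not used.

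Pileup and background were solved from the fold and the p-value by the MACS2 formula, which gave whole pileups in 100% of peaks, within 0.01 fragments. The lowest background was 1.96 fragments per base in RPMI-8402 and 1.59 in Jurkat. The number of reads per library is unknown, so depth shows only through these values. Peaks were shared at an overlap of 1 bp. Only peaks on the autosomes, X and Y were kept, 24603 of 24607 in RPMI-8402 and 25189 of 25197 in Jurkat. Intervals are 95% Poisson or exact binomial, and cover counting error only. No test between lines was possible. The 4 genes were named as given with the interval, every peak of the interval is accounted for, and strands are textbook knowledge. Members and lists were chosen with earlier results of these data known, and pileup classes after seeing the data. The pathway genes and cell markers listed for the design need hg19 gene positions and were not analysed here. Scripts, written in Python 3.11.15 with scipy 1.17.1, pandas 2.3.3 and numpy 2.4.6, were tested on simulated data.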

Additional observations from a re-analysis of the deposited data

How the results depend on the processing

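No paired analysis was possible because no line has a second library, and no replicate could be left out. At a −log10 q of at least 10, which by construction keeps fewer peaks, the interval held 10 RPMI-8402 and 1 Jurkat peaks, 9 RPMI-8402 peaks had no Jurkat partner, and the stretch around CDKN2A without a call was 643 kb in RPMI-8402 and 5582 kb in Jurkat. With the 10000 strongest peaks of each list these lengths were 643 and 6207 kb. The median percentile of the RPMI-8402 members was 54.8 by the deposited fold, and the cause was not tested. The median log2 ratio of the flanking pairs was −0.063 when scaled by the genome-wide background, which by construction moves every pair by the same amount and leaves the distance to the median of all pairs (−0.47 on that scale) as it was. It was 0.13 on the deposited fold, and the cause was not tested. The other 11 alternative values stayed close to the reported ones. They cover a peak counted by any overlap with the interval, partners at 50% reciprocal overlap or within 1 kb, gene starts judged within 500 bp, 2.5 kb or by overlap, and flanks of 2 Mb. Depth limits the absence of a call: a summit needs 10 fragments in RPMI-8402 and 9 in Jurkat over the lowest background.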
